A study of Drosophila melanogaster with 4 samples.

Results

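Cuticle protein genes were examined in RNA-seq counts from salivary glands of Drosophila melanogaster. They were taken by name, as every gene whose symbol begins with Cpr and a digit, or with Lcp, Ccp, Twdl, Edg, obst-, Gasp, Cpap or Acp65. This gave 41 of the 9931 genes in the deposited table, namely 19 Cpr genes, 9 Tweedle genes (Twdl), 7 genes of the obstructor and Gasp group, 5 Lcp genes and Edg91. The glands came from JIL-1 null larvae in the third instar, carrying the mutant allele Z2 and labelled JIL-1-/-, and from wild-type larvae of the same stage, all raised in an incubator. JIL-1 is a chromosomal kinase that phosphorylates histone H3. Each genotype had 2 libraries, numbered 1 and 2, and neither the wild-type strain nor what the number marks is given in the sources used here. Whether libraries 1 and 2 of a genotype were made from different animals is not stated, so a p-value here reflects no more than how far these samples spread, and that spread may be technical.

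Insect cuticle is made by epithelial cells that secrete chitin and a large set of structural proteins at their apical surface. Cpr and Lcp proteins belong to the family that carries the Rebers-Riddiford chitin-binding region. Gasp and the obstructor proteins bind chitin through peritrophin-type domains. Tweedle proteins form a further family of cuticle proteins, known in flies for mutations that change body shape. Cuticle genes are switched on and off by ecdysone pulses, each gene at its own time in the moulting cycle. The secretory cells of the salivary gland make glue rather than cuticle, while the gland duct, like the trachea and the epidermis, is lined by cuticle.

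Library totals were 8071769 and 11369094 counts in JIL-1 null libraries 1 and 2 and 6222322 and 8496047 in wild type libraries 1 and 2. JIL-1 itself had 449 and 660 counts in JIL-1 null and 597 and 608 in wild type, a log2 fold change of -0.61 ± 0.12 (SE; edgeR adjusted p = 0.0147). Where in the gene these reads lie cannot be read from a count per gene. The 11 markers of gland secretory cells, among them 6 glue genes, held 317525 and 297767 CPM (counts divided by the TMM-scaled library size) in JIL-1 null. In wild type they held 287497 and 341358 CPM. Of the 11, PH4alphaSG1 and PH4alphaSG2 were called higher in JIL-1 null and Sgs1 and sage lower (edgeR adjusted p under 0.05). Their log2 fold changes were 4.14, 1.53, -1.25 and -0.54. Of all tested genes, 13.5% were called higher and 17.2% lower. Within a genotype the 2 libraries were not copies of each other: the chi-square of their counts, divided by its degrees of freedom, was 9.17 in JIL-1 null and 23.4 in wild type. Wild type library 2 stood apart in some midgut genes: the 7 listed digestive enzyme genes summed to 23.5 and 19.9 CPM in JIL-1 null, and to 101 and 617 CPM in wild type libraries 1 and 2. The excess of library 2 lay mostly in Jon65Aiv, LysD, betaTry and alphaTry, with Jon65Aiv at 3.91 and 306 CPM in wild type libraries 1 and 2. LysP, at 34.3 and 34.0 CPM, and Mal-A6, at 59.8 and 66.1 CPM, had similar levels in these 2 libraries.

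The 41 genes together held 547 and 510 CPM in JIL-1 null and 1155 and 1300 CPM in wild type. Cpr49Ac (FBgn0033725), a gene of the Rebers-Riddiford family on chromosome arm 2R, made up 72.2% and 76.3% of these counts in JIL-1 null and 83.1% and 86.7% in wild type. Without Cpr49Ac the sums were 152 and 121 CPM in JIL-1 null and 195 and 173 CPM in wild type. Levels of different genes can be set beside each other only per length, for which the authors' deposited table gives 1 pooled RPKM per genotype. On that scale Cpr49Ac stood at 116 in JIL-1 null and 294 in wild type, and Cpr51A, of the same family, at 85.2 in JIL-1 null and 122 in wild type. Gasp followed, at 9.60 RPKM in JIL-1 null and 12.9 RPKM in wild type. The median gene of the authors' deposited table had 3.25 RPKM in JIL-1 null and 3.19 RPKM in wild type, and 16 cuticle protein genes reached 1 RPKM in JIL-1 null and 19 in wild type. Most of the other cuticle protein genes were at a low level in these glands: 7 of the 41 stood at 1 CPM or more in every library, 24 had a count in all 4 libraries, and 12 had 10 or fewer counts in all libraries together.

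**Figure D1:**
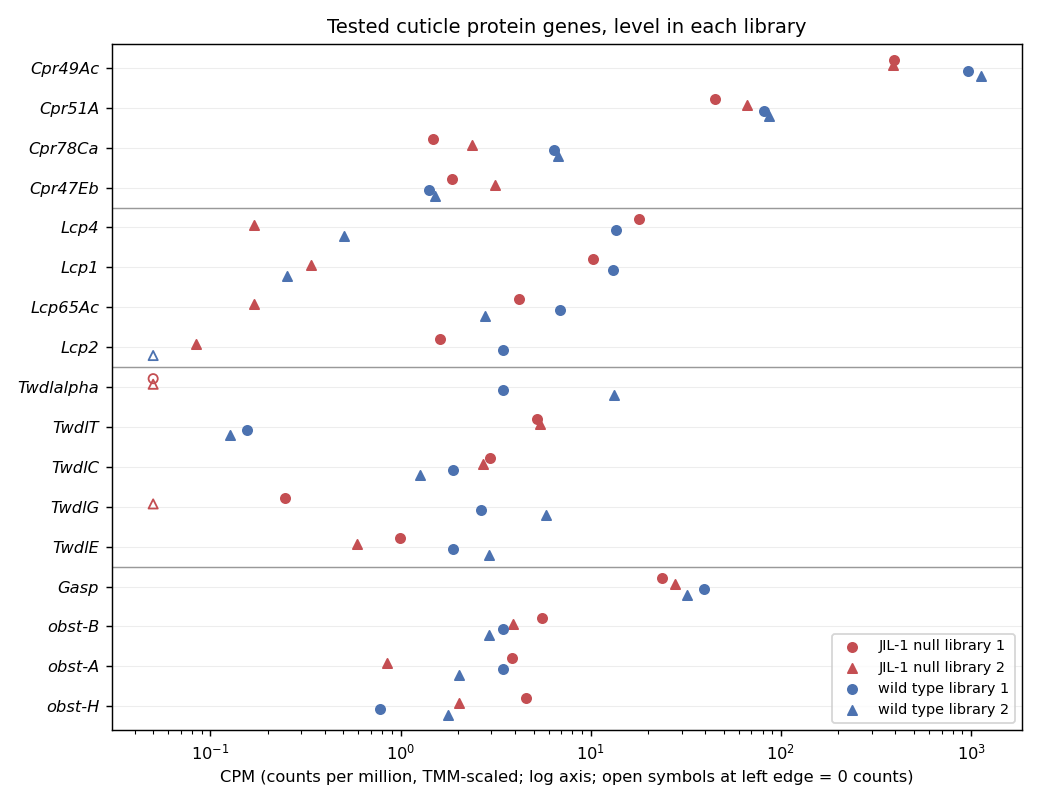
Level of the 17 tested cuticle protein genes in each library, in CPM on a log axis, with JIL-1 null in red and wild type in blue, library 1 as circles and library 2 as triangles. Rows are grouped from top to bottom as Cpr, Lcp, Tweedle, and obstructor with Gasp; in the Lcp rows both circles lie to the right of both triangles, while in the Cpr49Ac, TwdlT and Twdlalpha rows the colours separate.

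The count filter for a test was passed by 17 of the 41 genes. The order of the 4 libraries placed each of them in one of a pair of patterns. For 12 genes both JIL-1 null libraries lay above, or both below, the wild-type libraries, and 70.3% of all 7958 tested genes did so. Of these, 5 were higher in JIL-1 null (37.2% of all tested genes) and 7 were lower (33.1%). For the other 5, which were Lcp1, Lcp2, Lcp4, Lcp65Ac and obst-A, both libraries numbered 1 lay above both libraries numbered 2, whatever the genotype. That order was shown by 6.99% of all tested genes, and the reverse order, shown by 6.6% of all tested genes, by none of the 17. Order by number in either direction was found in 13.6% of all tested genes. Order by neither genotype nor number was found in 16.1%, against 0 of the 17. When the lowest value of the higher pair had to be at least 1.5 times the highest value of the lower pair, 6 of the 17 genes followed genotype, against 21.6% of all tested genes. These were TwdlT, higher in JIL-1 null (9.15% of all tested genes), and Cpr49Ac, Cpr78Ca, TwdlG, Twdlalpha and TwdlE, lower (12.4%). The same 5 genes followed the number at that margin, against 1.18% of all tested genes in either direction, 1.01% with libraries 1 higher. Genes that passed the minimum count through the libraries in which they are high enter these counts more easily than genes that are low throughout. Across the 17 genes the difference between library 1 and library 2 in JIL-1 null correlated with that in wild type with r = 0.824, and across all tested genes with r = -0.0777. These are correlations of log2(CPM + 1) values over genes that share libraries and depth, given as a description. The 17 include genes already placed by number. In the number test Lcp4, Lcp1 and Lcp2 had log2 differences of 5.63, 5.17 and 5.16, beside a median of 0.04 over the 17. The correlation without these genes was not computed, so r = 0.824 is no trait of all 17.

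**Figure D2:**
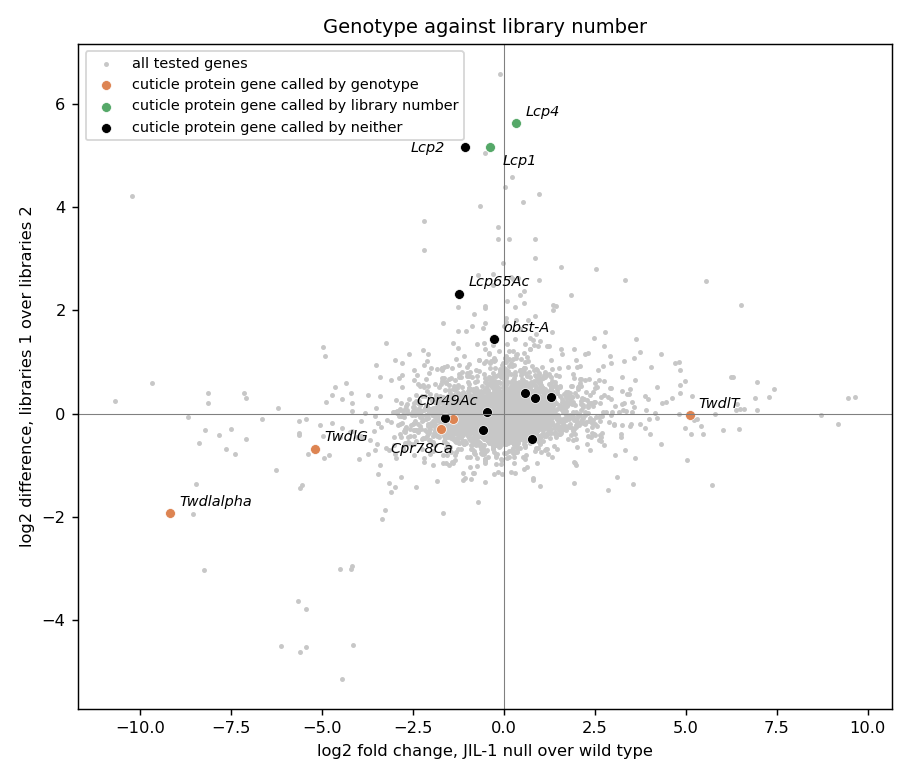
Each point is a tested gene, with its log2 fold change of JIL-1 null over wild type on the x axis and its log2 difference of libraries 1 over libraries 2 on the y axis; grey points are all 7958 tested genes. TwdlT, TwdlG and Twdlalpha spread along the x axis and Lcp1, Lcp2 and Lcp4 lie above 5 on the y axis; the fitted x value of Twdlalpha, which had no counts in JIL-1 null, depends on the prior count.

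By genotype, 5 of the 17 tested genes changed: Cpr49Ac, Cpr78Ca, TwdlG and Twdlalpha fell in JIL-1 null and TwdlT rose (adjusted p under 0.05 in edgeR, quasi-likelihood test, with Benjamini-Hochberg adjustment over all 7958 tested genes). That is 29.4% of the tested cuticle protein genes, beside 30.7% of all tested genes, a share near the background. In JIL-1 null 13.5% of all tested genes rose and 17.2% fell. The median log2 fold change of the 17 genes was -0.48, against 0.03 over all tested genes. Without wild type library 1 it was 0.12, and without JIL-1 null library 1 it was -1.47, so the sign of the median rests on wild type library 1. Of all tested genes, 1077 were called higher in JIL-1 null and 1369 lower. Upper quartile scaling moved the median of all genes to 0.17 and the calls to 1690 higher and 1154 lower, and the same 5 cuticle protein genes were called. In whole glands, fewer cells of a type and less RNA per cell cannot be told apart.

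Of the 4 tested Cpr genes, 2 fell. Cpr49Ac had 395 and 389 CPM in JIL-1 null libraries 1 and 2, against 960 and 1128 CPM in wild type libraries 1 and 2. It averaged 392 ± 4.23 CPM in JIL-1 null and 1044 ± 119 CPM in wild type (SD, n = 2 each). The groups lay far apart and the JIL-1 null libraries were nearly equal. Its log2 fold change was -1.41 ± 0.13 (SE), a fall to 0.376 of the wild-type level, with an edgeR adjusted p of 0.00101, and it was called under all 11 alternatives (adjusted p from 1.06e-24 to 0.0331). Cpr78Ca, on arm 3L, had 1.48 and 2.37 CPM in JIL-1 null and 6.42 and 6.71 CPM in wild type. These levels rest on 12 and 28 counts in JIL-1 null and 41 and 53 counts in wild type. Its log2 fold change was -1.73 ± 0.31 (edgeR adjusted p = 0.00985; 0.00700 to 0.0454 over the 10 alternatives in which it was tested).

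Cpr51A and Cpr47Eb did not pass the test. Cpr51A, on arm 2R, had 45.1 and 65.9 CPM in JIL-1 null and 81.2 and 86.3 CPM in wild type, without overlap. Its log2 fold change was -0.59 ± 0.18 (edgeR adjusted p = 0.0553). It lay on either side of the threshold under the alternatives, passing in 6 of 11 (adjusted p from 0.0225 to 0.221), among them the fit with the library number as a replicate block. Cpr47Eb had 1.85 and 3.13 CPM in JIL-1 null and 1.41 and 1.52 CPM in wild type, with a log2 fold change of 0.78 ± 0.44 (edgeR adjusted p = 0.225).

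The Tweedle family held the widest genotype differences among the 17 genes, in both directions. TwdlT, on arm 3R, had 5.19 and 5.41 CPM in JIL-1 null and 0.157 and 0.127 CPM in wild type. The wild-type values are 1 count in each library, against 42 and 64 counts in JIL-1 null. The ratio was 38.0, and its exact 95% counting interval ran from 10.3 to 318 (edgeR adjusted p = 0.00110; 0.000111 to 0.0243 over alternatives). Intervals of this kind cover counting error only.

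TwdlG and Twdlalpha moved the other way. TwdlG, also on arm 3R, had 2 and 0 counts in JIL-1 null and 17 and 46 counts in wild type, which is 0.247 and 0 CPM in JIL-1 null against 2.66 and 5.82 CPM in wild type. Wild type exceeded JIL-1 null by a ratio of 43.9 (counting interval 11.7 to 371), with an edgeR adjusted p of 0.00992 (0.000230 to 0.0701 over alternatives). Twdlalpha, on the X chromosome, had no counts in either JIL-1 null library and 22 and 105 counts in wild type, 3.44 and 13.3 CPM. It was at least 26.8-fold lower in JIL-1 null, with the JIL-1 null level set at 3 counts in each library (edgeR adjusted p = 0.0103; 0.000102 to 0.0709 over alternatives). That bound was 11.03-fold without wild type library 2 and 42.6-fold without wild type library 1. Without JIL-1 null library 2 neither TwdlG nor Twdlalpha passed the threshold, with adjusted p = 0.0701 and 0.0709, while the ratio of wild type over JIL-1 null was 17.8 for TwdlG and the bound for Twdlalpha 22.6-fold. Without JIL-1 null library 1, TwdlG had no counts left in JIL-1 null and was at least 16.7-fold lower there. Without wild type library 2 its ratio was 26.5. Both were higher in wild type library 2 than in wild type library 1, and library 2 is also the one with high midgut enzyme levels; the part of carried-over midgut tissue in these values was not tested.

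The other Tweedle genes tested were TwdlE and TwdlC. TwdlE had 0.989 and 0.591 CPM in JIL-1 null and 1.88 and 2.91 CPM in wild type (log2 fold change -1.63 ± 0.53, edgeR adjusted p = 0.0626). TwdlC had 2.97 and 2.70 CPM in JIL-1 null and 1.88 and 1.27 CPM in wild type (0.86 ± 0.39, edgeR adjusted p = 0.148). Neither pair of groups overlapped, and neither gene passed the test.

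Among the chitin-binding obstructor and Gasp genes, none of the 4 tested was called by genotype in edgeR, and at an unadjusted p under 0.05 only Gasp would pass. Gasp, which encodes a chitin-binding protein of the tracheal lumen, had 23.6 and 27.6 CPM in JIL-1 null and 39.6 and 32.2 CPM in wild type, a log2 fold change of -0.48 ± 0.15 (edgeR adjusted p = 0.0558; called in 2 of 11 alternatives, 0.0183 to 0.285). The JIL-1 null libraries of obst-B, at 5.56 and 3.89 CPM, lay above the wild-type libraries at 3.44 and 2.91 CPM (0.56 ± 0.31, edgeR adjusted p = 0.212). For obst-H the values were 4.57 and 2.03 CPM in JIL-1 null and 0.783 and 1.77 CPM in wild type (1.30 ± 0.59, edgeR adjusted p = 0.148). With DESeq2 and with limma-voom, none of these 4 genes was called by genotype either.

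**Figure D3:**
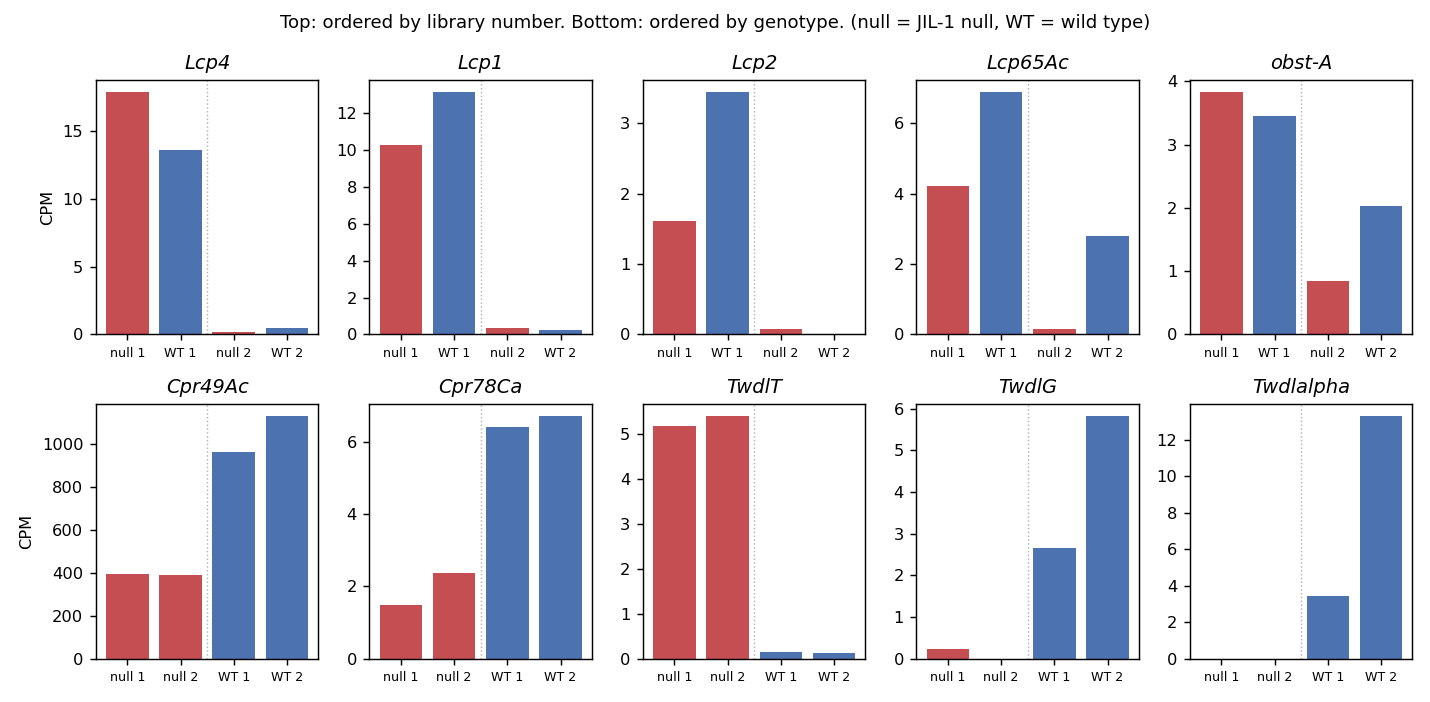
CPM in each library for the 5 genes that follow the library number (top row, libraries 1 left of the dotted line and libraries 2 right of it) and the 5 genes called by genotype (bottom row, JIL-1 null left and wild type right), with JIL-1 null in red, wild type in blue, and axes from 0. In the top row the bars drop across the line for both colours, with Lcp4 at 17.9 and 13.6 CPM left of it and 0.169 and 0.506 CPM right of it; in the bottom row only TwdlT is higher on the JIL-1 null side.

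The Lcp genes, which encode larval cuticle proteins, were ordered by library number, and 2 of the 4 tested, Lcp4 and Lcp1, passed the number test. The difference between libraries 1 and libraries 2 was tested in a model that also held genotype, and these were the 2 of the 17 genes called higher in libraries 1. Over all genes, 8 of 7958 tested were called by number, 0.101%, all of them higher in libraries 1. Lcp4 had 17.9 CPM in JIL-1 null library 1 and 13.6 CPM in wild type library 1, against 0.169 and 0.506 CPM in JIL-1 null and wild type libraries 2. In counts this was 145 and 87 in libraries 1 against 2 and 4 in libraries 2. The log2 difference of libraries 1 over libraries 2 was 5.63 ± 0.40 (SE), or 49.6-fold, with an edgeR adjusted p of 0.00511. Lcp1 had 10.3 and 13.1 CPM in JIL-1 null and wild type libraries 1, and 0.338 and 0.253 CPM in libraries 2. These were 83 and 84 counts against 4 and 2, with a log2 difference of 5.17 ± 0.36 (36.1-fold, edgeR adjusted p = 0.00511).

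In both genes the high and the low library of one genotype enclosed or overlapped those of the other. Lcp4 averaged 9.05 ± 12.6 CPM in JIL-1 null and 7.06 ± 9.27 CPM in wild type, and Lcp1 averaged 5.30 ± 7.02 CPM in JIL-1 null and 6.70 ± 9.12 CPM in wild type (SD, n = 2 each). Their log2 fold changes of JIL-1 null over wild type were 0.34 ± 1.58 and -0.37 ± 1.52 (edgeR adjusted p = 0.892 and 0.876). With 1 library left out the log2 fold change of Lcp4 ran from -5.24 (without JIL-1 null library 1) to 4.03 (without wild type library 1), and that of Lcp1 from -4.22 to 4.22 with the same libraries left out, so a comparison of genotypes resting on 3 of these libraries would give either sign.

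Lcp2 and Lcp65Ac showed the same order and did not pass the number test over all genes. Lcp2 had 13 and 22 counts in JIL-1 null and wild type libraries 1, and 1 and 0 counts in libraries 2. The ratio was 47.7 (counting interval 8.02 to 1938), with an edgeR adjusted p of 0.289. Lcp65Ac had 4.20 and 6.89 CPM in JIL-1 null and wild type libraries 1, and 0.169 and 2.78 CPM in libraries 2, so wild type library 2 kept an intermediate level (log2 difference 2.33 ± 0.66, edgeR adjusted p = 0.855). By genotype, Lcp2 differed by -1.09 ± 1.59 and Lcp65Ac by -1.23 ± 1.07 on the log2 scale (edgeR adjusted p = 0.640 and 0.421). Lcp65Ac was called lower in JIL-1 null, at -4.71, when JIL-1 null library 1 was left out (adjusted p = 0.0276), and without wild type library 1 the genotype difference of Lcp2 was 5.83 (adjusted p = 0.221). Without a filter on low counts both were called by number, with adjusted p = 0.00607 for Lcp2 and 0.00939 for Lcp65Ac. Lcp9 had too few counts for a test, at 7 and 7 in libraries 1 against 1 and 3 in libraries 2. Without a filter it was not called by number (edgeR adjusted p = 0.999). All 5 Lcp genes, of which 4 were tested and 2 called by number, were thus higher in both libraries 1. With no minimum count, 8.43% of all 9931 genes had that order. Summed over these 5 genes, libraries 1 held 34.9 CPM in JIL-1 null and 38.2 CPM in wild type, and libraries 2 held 0.845 CPM in JIL-1 null and 3.92 CPM in wild type. Lcp1, Lcp2 and Lcp4 lie together on arm 2R, with Lcp1 next to Lcp2 and Lcp3 between Lcp2 and Lcp4. Lcp1 and Lcp2 are close copies, as are Lcp3 and Lcp4, so reads can be shared between them, and Lcp3 was not analysed here.

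The obstructor gene obst-A, which encodes a chitin-organising matrix protein, also followed the number. It had 3.83 and 3.44 CPM in JIL-1 null and wild type libraries 1, and 0.845 and 2.03 CPM in libraries 2 (log2 difference 1.44 ± 0.50, edgeR adjusted p = 0.999). Its genotype difference was -0.27 ± 0.72 on the log2 scale (edgeR adjusted p = 0.801). At an unadjusted p under 0.05 in the number test, 6 of the 17 genes would pass, 5 of them higher in libraries 1 and 1, Twdlalpha (0 counts in both JIL-1 null libraries), higher in libraries 2. Over all tested genes 3.87% passed that mark.

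The number calls depend on the model. With number as the only term, Lcp4 and Lcp1 were not called (edgeR adjusted p = 0.9999 for both). In that fit 0 of all 7958 tested genes were called in either direction. Genotype differences count as spread there, so the fit cannot tell how firm these 2 calls are. With any library also left out, the log2 differences stayed between 4.92 and 6.43 for Lcp4 and between 5.02 and 5.44 for Lcp1. With limma-voom both missed the threshold narrowly (adjusted p = 0.0532). DESeq2 called both.

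The other 6 genes called by library number, chosen here after their values were seen, were ImpE2, CG43164, CG14850, pncr002:3R, CG9021 and CG14237. ImpE2, an ecdysone-inducible gene first found in imaginal discs, had 32.8 and 18.5 CPM in JIL-1 null and wild type libraries 1, and 3.38 and 1.52 CPM in libraries 2 (log2 difference 3.39 ± 0.23, edgeR adjusted p = 0.00511). The noncoding RNA gene pncr002:3R had 39 and 42 counts in libraries 1 and 1 and 2 counts in libraries 2. In CG14850 the call came from wild type alone, with no counts in JIL-1 null and 216 and 14 counts in wild type libraries 1 and 2. What the library number marks is not known, and the cause of these differences was not tested.

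The 24 cuticle protein genes that did not pass the count filter had between 5 and 107 counts in all. With no minimum count, 20 of the 41 genes were ordered by genotype, against 65.2% of all 9931 genes in the table. Both libraries 1 were higher for 9 of the 41 (8.43% of all genes) and both libraries 2 for 2 (7.85%), while 10 showed neither order (18.5%). At the counts of the untested genes an order can arise from a few reads. Cpr97Ea and Cpr97Eb, which are neighbours on arm 3R, had 6 and 3 counts and 9 and 8 counts in JIL-1 null, and none in wild type. Cpr49Ae likewise had 3 and 6 counts in JIL-1 null and none in wild type. With wild type set at 3 counts in each library, Cpr97Eb was at least 2.11-fold higher in JIL-1 null, and only Cpr97Eb was called when no filter was applied (edgeR adjusted p = 0.0385). Cpr11B had 0 and 2 counts in JIL-1 null and 9 and 5 in wild type, so that wild type exceeded JIL-1 null 9.76-fold (counting interval 2.24 to 88.5).

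In some of these untested genes the counts sat almost wholly in 1 library. The obstructor gene obst-J had 95 and 4 counts in JIL-1 null libraries 1 and 2 and 0 and 8 in wild type libraries 1 and 2. Its mean of 6.04 CPM in JIL-1 null, against 0.506 CPM in wild type, therefore rests on JIL-1 null library 1. In obst-F, 35 of the 40 counts came from wild type library 2. Cpr78E and Cpr12A were higher in both libraries 1 but did not pass the number test in the fit without a filter (edgeR adjusted p = 0.307 and 0.326), with 11 and 6 counts of Cpr78E in JIL-1 null and wild type libraries 1 and 1 and 0 in libraries 2, and 8 and 17 counts of Cpr12A in libraries 1 and 1 and 4 in libraries 2. Edg91, an ecdysone-dependent gene of the prepupal epidermis, had 6 and 2 counts in JIL-1 null and 6 and 8 in wild type.

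Genes of cuticle tanning and pigment, from a list chosen with earlier results of these data known, included many that were lower in JIL-1 null. Of 17 tested, 9 fell in edgeR and the other 8 did not pass the test, beside 17.2% of all tested genes falling, and the list median was -1.08 on the log2 scale. Pu, which encodes GTP cyclohydrolase of the pterin pathway, had 5.69 and 7.18 CPM in JIL-1 null and 26.8 and 42.7 CPM in wild type (log2 fold change -2.42 ± 0.27, edgeR adjusted p = 0.00207). The tyrosine hydroxylase gene ple had 3.34 and 1.35 CPM in JIL-1 null and 18.9 and 8.86 CPM in wild type (-2.62 ± 0.52, adjusted p = 0.0138). For Ddc, the dopa decarboxylase gene, the levels were 1.11 and 0.845 CPM in JIL-1 null and 4.85 and 3.92 CPM in wild type (-2.16 ± 0.38, adjusted p = 0.00933). Also lower were b, yellow-c, yellow-d, yellow-d2, yellow-f and yellow-g. Of these, yellow-c was at 8.65 and 11.7 CPM in JIL-1 null and 46.2 and 53.0 CPM in wild type. By number, 2 of the 17, Dat and yellow-h, were higher in both libraries 1, beside 6.99% of all tested genes.

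Chitin genes were examined in the same way, from a list chosen likewise. Of 26 tested genes of chitin synthesis, deacetylation and turnover, 10 fell and 1 rose, beside the same shares of all tested genes as above, 17.2% and 13.5%, with a median log2 fold change of -0.42. The falls included the chitinase genes Cht5, at 1.36 and 1.77 CPM in JIL-1 null and 7.36 and 6.46 CPM in wild type (-2.11 ± 0.29, edgeR adjusted p = 0.00402), and Cht3 and Cht6. They also included 4 genes of the imaginal disc growth factors, chitinase-like proteins, among them Idgf1 at 17.1 and 12.7 CPM in JIL-1 null and 25.5 and 37.3 CPM in wild type. The chitin synthase gene kkv, at 3.34 and 1.86 CPM in JIL-1 null and 3.13 and 2.91 CPM in wild type, did not pass the test (-0.24 ± 0.40, adjusted p = 0.681). The gene that rose was Gfat2, of amino sugar synthesis, at 0.38 ± 0.11 (edgeR adjusted p = 0.0471). It had 332 and 357 CPM in JIL-1 null and 278 and 250 CPM in wild type. Both libraries 1 lay above both libraries 2 for 5 of the 26, kkv, knk, rtv, verm and Cda4. That order was shown by 6.99% of all tested genes, and no gene of this list was called by number. Cht7 had the reverse order, shown by 6.6% of all tested genes.

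Of the 8 tested genes of the apical matrix with zona pellucida domains, 1 fell, qsm, at -0.86 ± 0.24 (edgeR adjusted p = 0.0389). For 4 of the 8, both libraries 1 lay above both libraries 2, as they did for 6.99% of all tested genes. The zona pellucida gene zye had 2.97 and 4.70 CPM in JIL-1 null and wild type libraries 1, and 0.422 and 0.759 CPM in libraries 2 (log2 difference 2.68 ± 0.50, adjusted p = 0.280). The giant matrix protein gene dp had 8.78 and 12.7 CPM in libraries 1 and 5.49 and 4.81 CPM in libraries 2. The other members with this order were tyn and neo, and the median number difference of the list was 0.83, against -0.01 over all tested genes.

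Regulators that time or drive cuticle genes included 14 tested genes, of which 8 fell and 1 rose, beside 17.2% of all tested genes falling and 13.5% rising, with a median of -0.81. The falls were the early ecdysone-response and nuclear receptor genes br, Eip74EF, Eip75B, Hr4, Hr38, Hr39 and Hr78 and the coactivator gene tai, and the gene that rose was Hr46. The competence factor gene ftz-f1 stood at 6.06 and 7.43 CPM in JIL-1 null and 4.07 and 5.32 CPM in wild type and did not pass the test (0.52 ± 0.24, edgeR adjusted p = 0.147). For 3 of the 14, grh, ovo and vri, both libraries 1 lay above both libraries 2, beside 6.99% of all tested genes. The epidermal factor gene grh had 3.34 and 3.91 CPM in JIL-1 null and wild type libraries 1, and 1.61 and 1.90 CPM in libraries 2. Its log2 difference was 1.04 ± 0.40 by number (edgeR adjusted p = 0.999) and -0.25 ± 0.53 by genotype (adjusted p = 0.758).

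**Figure D4:**
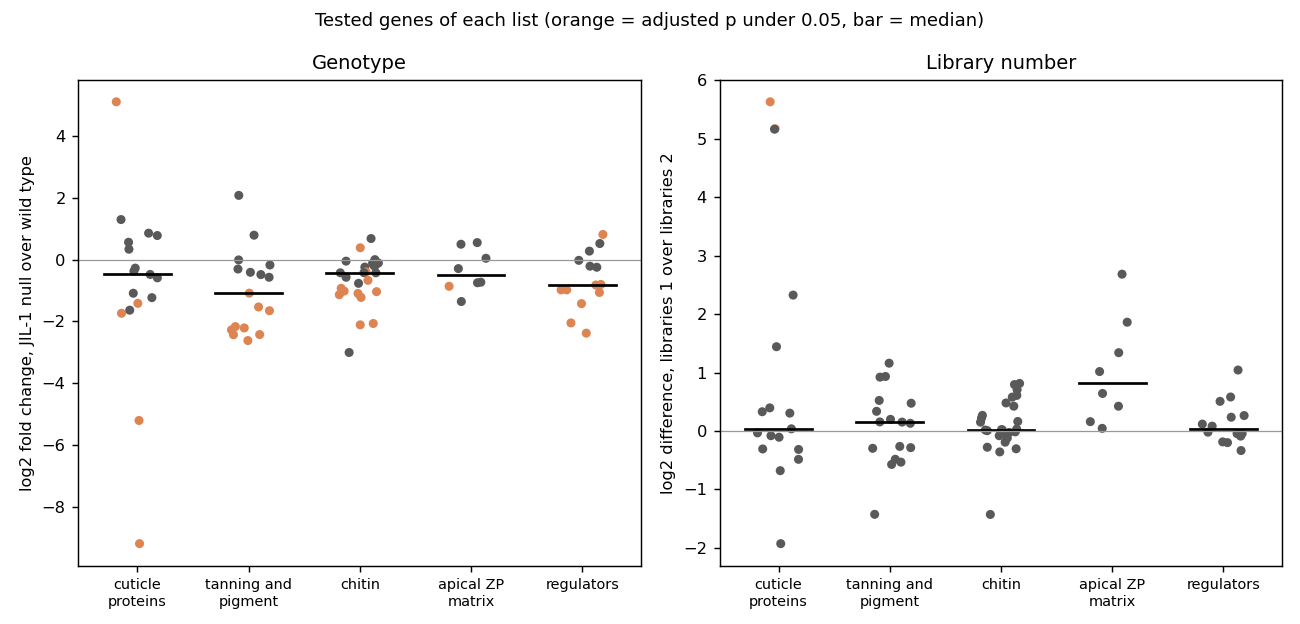
Tested genes of the cuticle protein set and of 4 lists of related genes, with the log2 fold change of JIL-1 null over wild type on the left and the log2 difference of libraries 1 over libraries 2 on the right; orange points have adjusted p under 0.05 by edgeR and bars are medians. Tanning genes have the lowest genotype median, -1.08, and the cuticle proteins Lcp1 and Lcp4 are the orange points in the right panel, where Lcp2 lies close to Lcp1.

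Markers of tissues that can be carried over with the glands were counted for both splits, and the genotype calls stand beside 17.2% of all tested genes falling and 13.5% rising. Of 6 tested tracheal markers 1, serp, which the chitin list also holds, fell by genotype. The 10 in the table summed to 99.3 and 108 CPM in JIL-1 null and 112 and 85.1 CPM in wild type. Of these, kni, knrl and salm were near 0. The largest share was that of pio, which the apical matrix list also holds. It had 63.7 and 80.6 CPM in JIL-1 null and 59.5 and 43.2 CPM in wild type. Its log2 fold change was 0.50 ± 0.19 (edgeR adjusted p = 0.0928). The other tested tracheal markers had log2 fold changes below 0, from -0.93 for serp to -0.42 for trh. By number, 1 of the 6 tested tracheal markers, verm, was higher in both libraries 1, an order shown by 6.99% of all tested genes. It had 15.6 and 21.4 CPM in JIL-1 null and wild type libraries 1 and 9.89 and 12.7 CPM in libraries 2. The untested kni, knrl and salm also had this order, at no more than 6 counts in any library. With no minimum count, 8.43% of all 9931 genes had it. Of 8 tested imaginal disc markers 1 rose and 1 fell by genotype. The 11 in the table summed to 145 and 132 CPM in JIL-1 null and 130 and 130 CPM in wild type. The marker that rose, ct, held 72.6 and 75.2 CPM in JIL-1 null and 48.2 and 49.0 CPM in wild type. Of the other tested disc markers only Dll had a log2 fold change above 0. In this list 2 of the 8 tested, Dll and hth, had the order of the Lcp genes. For Dll the levels were 3.09 and 1.25 CPM in JIL-1 null and wild type libraries 1 and 0.591 and 0 CPM in libraries 2. The untested ac, en and sca had that order too, at no more than 9 counts in any library. The disc genes nub, vg and Ubx were not analysed here. Of 9 muscle markers 1 rose and 1 fell by genotype, and they summed to 116 and 105 CPM in JIL-1 null and 140 and 82.4 CPM in wild type. Among these 9, 2 had the order of the Lcp genes, Mhc and Act57B. Mhc had 10.8 and 19.6 CPM in JIL-1 null and wild type libraries 1 and 7.69 and 6.58 CPM in libraries 2. Act57B had 19.2 and 38.7 CPM in libraries 1 and 14.6 and 16.2 CPM in libraries 2. Salivary duct markers, with eyg lower at -0.50 ± 0.12 (edgeR adjusted p = 0.0273) and Ser and trh not past the test, summed to 77.0 and 76.0 CPM in JIL-1 null and 99.6 and 115 CPM in wild type. Fat body markers fell in 4 of 7 cases and rose in 1, and had by far the highest sums of these tissues. They held 38394.5 and 38383.6 CPM in JIL-1 null and 57207.4 and 68110.2 CPM in wild type. The one that rose, Lsp1gamma, had 3895 and 4774 CPM in JIL-1 null and 7.36 and 7.59 CPM in wild type. Haemocyte markers fell in 2 of 3 tested, neuronal markers in 1 of 2 tested and midgut markers in 3 of 6. No tested duct, fat body, haemocyte, neuronal or midgut marker had the order of the Lcp genes. The 8 genes called by library number in edgeR, all named above, include none of these markers or of the 4 lists. Their part in the cuticle gene differences was not tested.

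The authors' deposited table called more cuticle protein genes than edgeR did here. At a false discovery rate under 0.05 in that table, 10 of the 41 genes passed, against 37.7% of all 9931 genes. Of the 10, 4 had a ratio of JIL-1 null over wild type above 1 (22.6% of all genes) and 6 a ratio below 1 (15.1%). These included all 5 genes called here and TwdlE, and 4 of the 10 had too few counts to be tested here. For Lcp1, Lcp4 and Lcp2 the authors' deposited table gave ratios of 0.843, 1.37 and 0.516 with false discovery rates of 0.398, 0.379 and 0.320.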

How the data were processed

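RNA-seq of total RNA from larval salivary glands was available as 1 table. GSNAP is the aligner, and BDGP5 and dm3 the builds, that the submitters' processing notes name. How reads were counted (annotation, strand, filters) is not given in the sources used here. Per the file headers, the authors deposited raw counts for each gene in each library. The pooled RPKM per genotype, the ratio of mutant over wild type, and the p-value with its false discovery rate are the authors' deposited values, and serve here only to describe levels and the authors' own comparison. Chromosome arms and neighbouring genes come from annotation BDGP6.54 (Ensembl release 115), another build, so no coordinates are given. It names 133 genes of this kind, of which 92 were not analysed here.

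The members and lists were chosen with earlier results of these data known. Counts were tested in edgeR 4.0.16 (R 4.3.3) with TMM factors, filterByExpr (count minimum 10, total minimum 15; 7958 genes kept) and the two-sided quasi-likelihood test, adjusted over all tested genes by Benjamini-Hochberg, with calls at 0.05. Genotype was tested alone (2 residual and 4.08 prior degrees of freedom, biological coefficient of variation 14.9%). The library number was tested in a model with genotype (1 residual and 6.05 prior degrees of freedom). Fitted values use a prior count of 0.125, and standard errors come from the F statistic. A group at 0 was set at 3 counts per library, which is 0.253 to 0.470 CPM. Exact 95% intervals are binomial. Alternatives used upper quartile scaling, DESeq2 1.42.0 size factors and test, limma 3.58.1 (voom), other filters, the number as a replicate block, and leaving out each library; the bounds and ratios with a library left out were added after seeing the data. Named genes are those called by genotype or number, the 5 with the highest mean CPM, and the most abundant tested gene of each family; all other genes were chosen after their values were seen. The procedure was tested on simulated data.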

Additional observations from a re-analysis of the deposited data

How the results depend on the processing

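Cpr49Ac, Cpr78Ca and TwdlT kept their genotype calls in every alternative that tested them. Cuticle protein genes called higher in JIL-1 null numbered 1, but 2 without a filter and 0 when a mean of 5 CPM was required; those called lower numbered 4, but 1 under that requirement, where fewer genes are tested. With each library left out, 1 was higher and 3 to 6 were lower. Over all genes, 1077 were higher, but 1690 with upper quartile scaling, 587 with DESeq2 and 191 to 1238 with a library left out; 1369 were lower, and 508 to 1646 with a library left out. With the library number as a replicate block, 1 and 5 cuticle protein genes and 961 and 1300 of all genes were higher and lower; the 2 pairs share only a number, and same-numbered libraries deviated with a correlation of -0.0777. The median log2 fold change of the tested cuticle protein genes was -0.48, and -1.47 to 0.12 with a library left out. By number, 2 cuticle protein genes were higher in libraries 1, but 4 without a filter and 0 with limma-voom, with number as the only term, or with any library left out of that fit, an alternative added after seeing the data. Over all genes 8 were higher in libraries 1, but 53 without a filter, 2 with limma-voom and 0 in those fits; 0 were higher in libraries 2 (130 at an unadjusted p under 0.05), but 34 without a filter, 3 with upper quartile scaling and 1 each with DESeq2, its size factors and limma-voom. Ordered genes numbered 12 by genotype, 5 by number and 0 by neither, but 20, 11 and 10 without a filter, and 6, 5 and 6 with a margin of 1.5 times. The genotype difference of Lcp4 turned to -0.89 with limma-voom and ran from -5.24 to 4.03 with a library left out, and that of Lcp1 from -4.22 to 4.22. Except where a smaller set of genes was tested, the cause was not tested. At this depth 24 of the 41 genes did not pass the count filter, and 1 of them, Cpr97Eb, was called without it.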
